A study of Mus musculus with 24 samples.

Results

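A set of 10 genes that establish or subdivide midbrain dopamine neurons, of 30270 genes in the deposited tables, was followed through every library of the series. They were chosen by symbol, with results of these comparisons already known, so their differences by genotype, injection and region are given as a description. They are the transcription regulators Pitx3, En1, Foxa2, Otx2, Sox6 and Satb1, and the subtype markers Aldh1a1, Calb1, Anxa1 and Ntsr1. Messenger RNA was sequenced from micropunches of frozen brain, 12 of the ventral tegmental area (VTA) and 12 of the nucleus accumbens (NAc), of 12 C57BL/6 mice. The mice were wild type (VDR+/+) or lacked the vitamin D receptor (Vdr-/-, a whole-body knockout that the study raised on feed enriched in calcium and lactose), and received PBS or 5 mg/kg morphine intraperitoneally 90 min before sampling. Each region had 3 libraries for each of the 4 groups, and ages were not in the labels. The libraries held 12421680 to 30184426 reads on genes in the VTA and 9328726 to 24509922 in the NAc.

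Dopamine neurons of the ventral midbrain arise under forkhead, homeodomain and nuclear receptor factors, and in the adult make dopamine with Th and take it back up with the transporter Slc6a3. Foxa2, En1 and Pitx3 specify and maintain these neurons. Sox6 and Aldh1a1 mark ventral substantia nigra neurons, of which an Anxa1 subset is part, while Otx2 and Calb1 mark many VTA and dorsal tier neurons. Cells other than dopamine neurons also use several of these genes, Calb1, Satb1 and Sox6 among them.

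The labels were checked first. VTA libraries labelled wild type had 2 to 17 reads of Vdr, the gene knocked out, and those labelled Vdr-/- had 3 to 17, so its gene-level count did not separate the genotypes, and the genotype directions below rest on the labels. The 5 genes listed for dopamine neurons (Th, Slc6a3, Slc18a2, Ddc and Nr4a2) summed to 1861 to 2367 CPM (reads scaled to a common library total) in VTA libraries of wild-type PBS mice. Their sum was 346 to 1767 in Vdr-/- PBS mice, 435 to 900 in Vdr-/- morphine mice and only 117 to 392 in wild-type morphine mice, against 44.6 to 82.6 over the 12 NAc libraries. Much of the NAc sum was Nr4a2, which alone had 26.1 to 67.8 CPM there and 25.6 to 79.0 in the VTA. Nr4a2 therefore does not set the regions apart as the other genes of the sum do. Wild-type morphine mice 1.0 and 1.2 had the lowest sums in the VTA, at 195 and 117 CPM, and Vdr-/- PBS mouse 9, at 346, stood below mice 7 and 8 of its group. A punch with fewer dopamine neurons and one with less RNA per neuron cannot be told apart in such bulk samples.

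The promoters of 4 genes are shown because their genes moved together between VTA libraries (below). Each is 300 bases from RefSeq on GRCm38.p6, 250 before and 50 after an annotated start, read 5′ to 3′ on the gene's strand, and capitals mark a TATA box (TATAAA). Pitx3 lies at chr19:46148276-46148575 on the minus strand, En1 at chr1:120602237-120602536 on the plus strand, Anxa1 at chr19:20390622-20390921 on the minus strand and the downstream of 2 Aldh1a1 starts at chr19:20601718-20602017 on the plus strand.
Pitx3: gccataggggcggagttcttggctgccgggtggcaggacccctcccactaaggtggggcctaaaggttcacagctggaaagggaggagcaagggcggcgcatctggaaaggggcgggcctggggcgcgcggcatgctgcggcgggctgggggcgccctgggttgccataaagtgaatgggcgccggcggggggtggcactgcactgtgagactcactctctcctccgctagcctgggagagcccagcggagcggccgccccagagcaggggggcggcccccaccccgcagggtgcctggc
En1: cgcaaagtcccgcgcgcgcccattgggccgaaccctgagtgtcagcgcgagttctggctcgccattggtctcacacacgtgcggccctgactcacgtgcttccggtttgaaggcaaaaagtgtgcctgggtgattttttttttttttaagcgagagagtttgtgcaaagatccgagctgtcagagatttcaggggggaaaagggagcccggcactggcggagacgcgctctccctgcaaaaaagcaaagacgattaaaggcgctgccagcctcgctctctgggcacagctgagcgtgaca
Anxa1: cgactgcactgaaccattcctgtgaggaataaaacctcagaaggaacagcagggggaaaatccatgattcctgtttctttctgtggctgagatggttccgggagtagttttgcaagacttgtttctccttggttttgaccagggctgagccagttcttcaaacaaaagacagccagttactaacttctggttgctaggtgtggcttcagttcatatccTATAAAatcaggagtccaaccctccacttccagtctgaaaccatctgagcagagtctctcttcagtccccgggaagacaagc
Aldh1a1: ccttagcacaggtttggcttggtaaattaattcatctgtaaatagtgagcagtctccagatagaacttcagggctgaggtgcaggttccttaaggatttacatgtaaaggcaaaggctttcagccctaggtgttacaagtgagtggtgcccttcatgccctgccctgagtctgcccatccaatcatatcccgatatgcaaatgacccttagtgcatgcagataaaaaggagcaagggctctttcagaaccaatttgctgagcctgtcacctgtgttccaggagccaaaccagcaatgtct

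The Anxa1 TATA box began 32 bases before the start. Of all 32851 promoters, 13.6% held TATAAA on either strand. Among 24 promoters listed for 9 of the members, those of Anxa1, Foxa2, Otx2 and Sox6 held it in at least 1 window. The forkhead motif TGTTTAC was in 3.65% of all promoters and in 0 of the 24. The homeodomain motif TAATCC, in 7.06% of all, was in 1 window each of Otx2 and Sox6, and the nuclear receptor half-site AGGTCA, in 16.3%, was in 3 windows, of Satb1 and Sox6. Of those in Sox6, 1 was the whole AAAGGTCA, which 1.51% of promoters held and which contains AGGTCA. A pair of AGGTCA half-sites 3 bases apart in the same direction, the spacing the vitamin D receptor is known for, occurred in 0.00609% of all promoters and in none of the 24. GC content was 71.7% for the Pitx3 window shown, 57% for En1, 47.3% for Anxa1 and 47% for Aldh1a1, beside a median of 52.7% over all promoters. Pitx3, Anxa1 and Aldh1a1 share chromosome 19, where 101770 bases and no other annotated gene separate Anxa1 from Aldh1a1 in GENCODE M21.

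Per length of transcript, as RPKM (CPM per kilobase of exon), Aldh1a1, the retinaldehyde dehydrogenase, was the highest of the 10 genes in the VTA of wild-type PBS mice, at 87.97 ± 4.28 (SD, n = 3). Ntsr1, the neurotensin receptor, followed at 17.7 ± 1.98, then Calb1, the calcium buffer calbindin, at 11.2 ± 2.20 and En1 at 10.8 ± 0.890. Satb1 had 4.22 ± 0.269, Pitx3 3.11 ± 0.879 and Sox6 2.61 ± 0.396. Foxa2 had 2.28 ± 0.145, Anxa1, a phospholipid-binding annexin, 1.97 ± 0.191, and Otx2 1.56 ± 0.266. Calb1 and En1 did not differ beyond their SDs, nor did any neighbours from Satb1 down to Otx2. In wild-type morphine mice the mean was 25.9 ± 4.55 RPKM for Calb1 and 21.2 ± 8.01 for Aldh1a1, which did not differ beyond their SDs. Of the 50-base runs of Aldh1a1 transcripts, 3.06% also occur in its paralog Aldh1a7. The exons of Pitx3 and Otx2 overlap genes on the opposite strand (Elovl3 by 10 bases, Otx2os1 by 154), and the strand setting of the counts is not given in the sources used here.

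**Figure D1:**
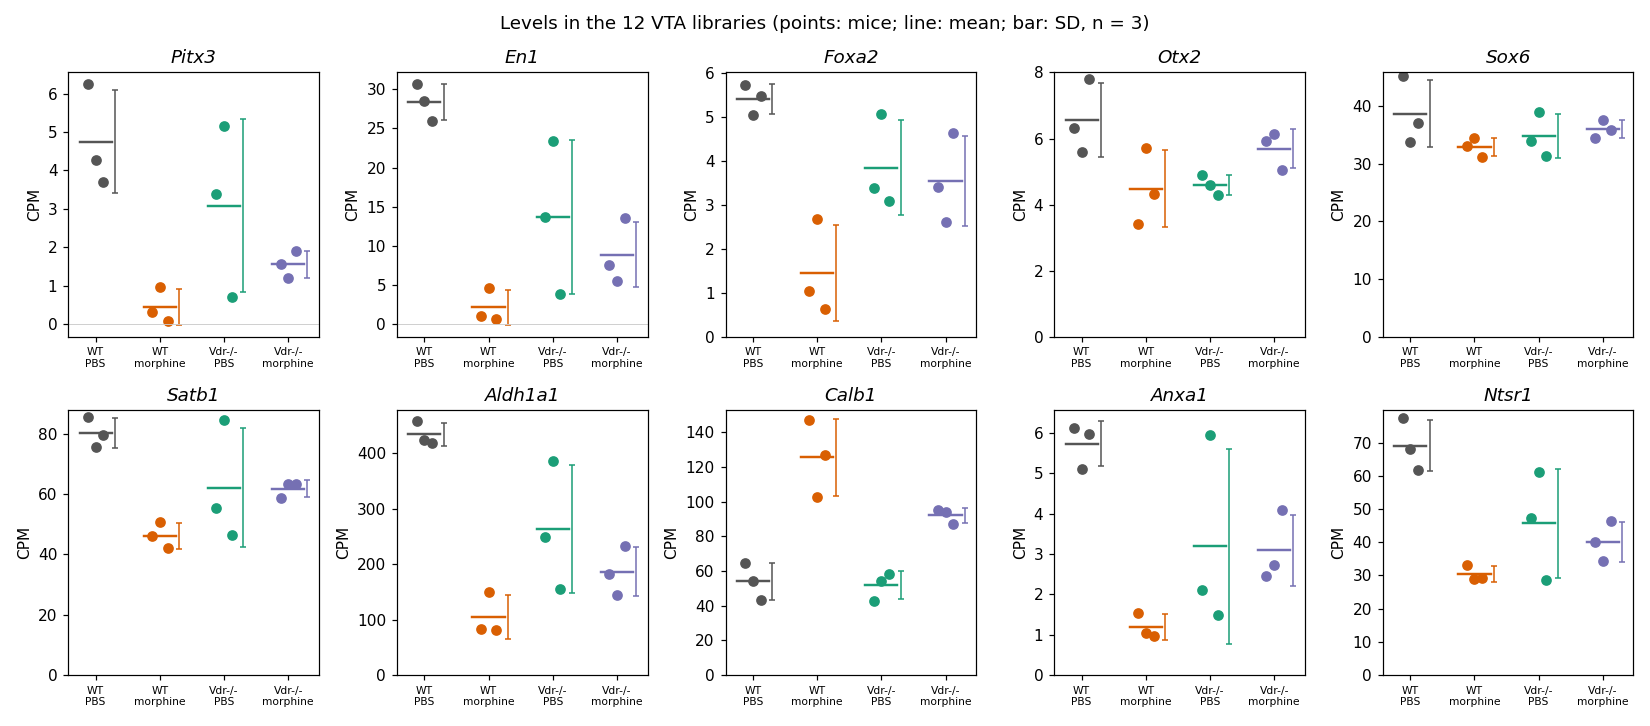
Level of each of the 10 genes in CPM (linear axis) in the 12 VTA libraries, by genotype and injection; points are mice, lines group means and bars SD (n = 3). In wild-type morphine mice En1 lay between 0.697 and 4.69 CPM, far below the 25.9 to 30.6 of wild-type PBS mice, while Calb1 lay above every PBS library.

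En1, a homeodomain factor needed for the survival of these neurons, ranged 43.9-fold over the 12 VTA libraries. It had 30.6, 28.4 and 25.9 CPM in wild-type PBS mice 1, 2 and 3, and 1.08, 4.69 and 0.697 in wild-type morphine mice 1.0, 1.1 and 1.2. In Vdr-/- mice it had 13.7, 23.4 and 3.91 with PBS (mice 7, 8 and 9) and 7.62, 5.51 and 13.5 with morphine (mice 2.0, 2.1 and 2.2). The wild-type groups did not overlap, and the Vdr-/- groups did.

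Pitx3, the paired-like homeodomain factor of these neurons, was at 6.25, 4.28 and 3.69 CPM in wild-type PBS mice and at 0.310, 0.975 and 0.0697 in wild-type morphine mice, the last being a single read. It was at 3.39, 5.15 and 0.696 in Vdr-/- PBS mice and at 1.57, 1.19 and 1.91 in Vdr-/- morphine mice. Every wild-type morphine library except 1.1 lay below all other VTA libraries.

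Foxa2, the forkhead factor of the floor plate lineage, gave 5.72, 5.04 and 5.47 CPM in wild-type PBS mice and 1.03, 2.68 and 0.627 in wild-type morphine mice. In Vdr-/- mice it gave 3.39, 5.07 and 3.08 with PBS and 3.40, 2.61 and 4.63 with morphine, which overlap.

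Satb1, a chromatin organizer, spanned less, from 42.0 CPM in wild-type morphine mouse 1.2 to 85.7 in wild-type PBS mouse 1. Its wild-type morphine libraries (46.0, 50.7 and 42.0) lay below the wild-type PBS ones (85.7, 75.5 and 79.7). Its Vdr-/- libraries were at 55.6, 84.5 and 46.5 with PBS, mouse 8 within the wild-type PBS range and mouse 9 within the wild-type morphine range, and at 58.7, 63.5 and 63.4 with morphine.

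Sox6 varied least of the 10. Otx2 ran from 3.41 to 7.80 CPM over the 12 VTA libraries, a 2.29-fold range, and Sox6 from 31.2 to 45.2, a 1.45-fold range, against 2.04-fold for Satb1 and 89.7-fold for Pitx3. Otx2 in Vdr-/- PBS mice (4.89, 4.59 and 4.31) lay below wild-type PBS mice (6.33, 5.59 and 7.80). Sox6 groups overlapped by genotype with PBS. With morphine the Vdr-/- libraries (34.40, 37.6 and 35.9) lay just above the wild-type ones (33.0, 34.36 and 31.2) in CPM but overlapped them in the table's normalized counts.

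Aldh1a1 had 459, 425 and 420 CPM in wild-type PBS mice and 82.4, 150.5 and 81.6 in wild-type morphine mice. It had 248.7, 387 and 156 in Vdr-/- PBS mice and 182, 145 and 233 in Vdr-/- morphine mice. Anxa1 had 6.13, 5.10 and 5.97 in wild-type PBS mice and 1.55, 1.04 and 0.975 in wild-type morphine mice. It had 2.11, 5.96 and 1.49 in Vdr-/- PBS mice and 2.46, 2.72 and 4.08 in Vdr-/- morphine mice. By mean CPM its groups followed the order of Aldh1a1. By median its Vdr-/- groups did not, with 2.11 for PBS and 2.72 for morphine. For both genes the Vdr-/- PBS group was spread widely, mouse 8 reaching the wild-type PBS level or near it.

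Ntsr1 was at 77.4, 68.2 and 61.9 CPM in wild-type PBS mice and at 33.2, 28.8 and 29.4 in wild-type morphine mice. It was at 47.3, 61.2 and 28.6 in Vdr-/- PBS mice and at 40.01, 34.2 and 46.3 in Vdr-/- morphine mice. The low Vdr-/- PBS mouse 9 was again at the wild-type morphine level.

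Calb1 ran the other way. It was at 64.7, 54.0 and 43.4 CPM in wild-type PBS mice and at 42.8, 54.5 and 58.0 in Vdr-/- PBS mice. With morphine it was at 147, 103 and 127 in wild-type mice and 95.1, 94.2 and 87.0 in Vdr-/- mice. Every morphine library exceeded every PBS library, and every wild-type morphine library exceeded every Vdr-/- morphine one.

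With PBS, all 10 genes had negative differences in the libraries labelled Vdr-/- against wild type, with a median of -0.61 on the log2(normalized count + 1) scale, beside -0.0017 over all genes. The differences were -1.40 ± 0.55 (SE) for En1, -1.11 ± 0.44 for Anxa1, -0.997 ± 0.646 for Pitx3, -0.83 ± 0.28 for Aldh1a1 and -0.07 ± 0.16 for Calb1. None of the 10 passed an adjusted p of 0.05 in limma over all genes, where 0.39% of genes did. At an unadjusted p under 0.05 there were 6, and DESeq2 and edgeR called none. How many of all genes had an unadjusted p under 0.05 or were called by DESeq2 is given only for the interaction below. The counts of this kind for the other comparisons have no background beside them. In normalized counts, the scale of every such count below, groups did not overlap for 5 of the 10 (En1, Foxa2, Otx2, Aldh1a1 and Ntsr1), as for 20.5% of all genes. In CPM the Foxa2 groups overlapped. Without Vdr-/- PBS mouse 8, 4 of the 10 passed (Aldh1a1, Anxa1, Foxa2 and Satb1). The 0.39% belongs to the fit with every library, and the share of all genes without mouse 8 is not given here. The 32 other dopamine neuron genes on a fixed list had a median of -0.61, 24 negative and none called by limma, 14 at an unadjusted p under 0.05 and 3 by DESeq2.

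With morphine, 9 of the 10 genes had positive differences in the libraries labelled Vdr-/- and Calb1 a negative one, the opposite signs to the PBS mice for those 9. En1 differed by 2.37 ± 0.66, Pitx3 by 2.10 ± 0.69, Foxa2 by 1.46 ± 0.49, Anxa1 by 1.32 ± 0.27 and Calb1 by -0.44 ± 0.11, and the median of the 10 was 0.64. None passed in limma, where 0.0624% of all genes did. At an unadjusted p under 0.05 there were 8, DESeq2 called Calb1 and Satb1, and edgeR none. The 0.0624% is no background for the unadjusted and DESeq2 counts. Groups did not overlap for 6 of the 10, as for 14.5% of all genes. Without wild-type morphine mouse 1.1, the least reduced of its group, En1, Calb1 and Satb1 passed. The share of all genes that passed without it is not given here. Of the 32 other genes 29 had positive differences, with a median of 0.67, none called by limma, 19 at an unadjusted p under 0.05 and 4 by DESeq2.

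Morphine against PBS in wild-type mice gave the largest differences. En1 was lower by 4.24 ± 0.71 on the log2 scale and Aldh1a1, Anxa1 and Ntsr1 had differences of -2.17 ± 0.27, -2.25 ± 0.25 and -1.29 ± 0.09. Satb1 had -0.83 ± 0.10 and Calb1 1.04 ± 0.14. These 6 of the 10 genes passed in limma, 5 lower and Calb1 higher, where 3.65% of all genes passed. Pitx3 (-3.89 ± 0.81) and Foxa2 (-2.13 ± 0.55) did not, nor did Otx2 (-0.47 ± 0.25) and Sox6 (-0.28 ± 0.13). Groups did not overlap for 8 of the 10, all but Otx2 and Sox6, as for 44.3% of all genes. The deposited table holds 3 morphine and 2 PBS mice, without PBS mouse 3. With all 3 PBS mice, 8 of the 10 passed, Pitx3 and Foxa2 included. Without morphine mouse 1.2 only Ntsr1 did. The 3.65% belongs to the deposited table, and the shares of all genes in these other fits are not given here. Leaving out PBS mouse 1 or 2 leaves a single PBS library, assumed to vary like the morphine ones, and none of the 10 passed then. Of the 32 other genes 19 passed, all lower, Slc6a3 by -4.68 ± 0.90, Th by -3.35 ± 0.38, the vesicular transporter Slc18a2 by -3.06 ± 0.34, the bile acid transporter relative Slc10a4 by -4.11 ± 0.65, the nicotinic subunits Chrna6 by -3.65 ± 0.55 and Chrnb3 by -3.92 ± 0.71, and the paralog En2 of En1 by -2.75 ± 0.29. Others of the 19 were Ddc, Gch1, Drd2, Dlk1, Foxa1, Kcnj6, Lmx1b, Ndnf, Pbx3, Ret and Sncg, with differences from -2.90 to -0.69.

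**Figure D2:**
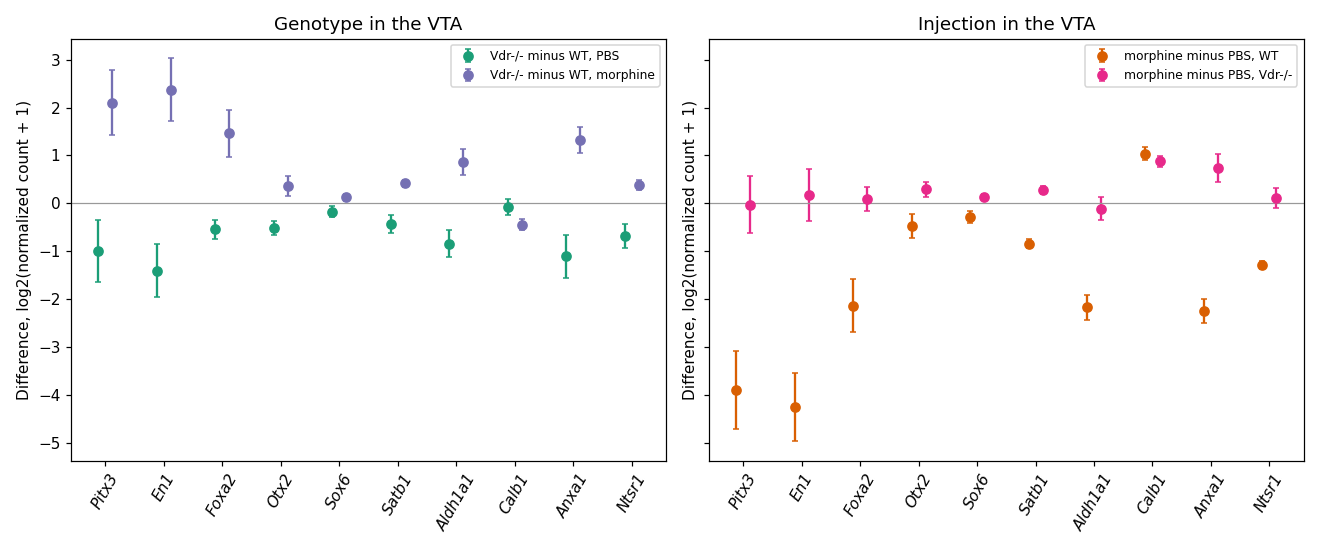
Differences of the 10 genes in the VTA on the log2(normalized count + 1) scale with their SE from limma, for genotype (left) and injection (right). With genotype the PBS values lie below 0 and the morphine values above it except Calb1 (-0.44); with injection the wild-type values reach -4.24 (En1) while Calb1 lies near 1 in both genotypes.

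In Vdr-/- mice morphine gave other values in the deposited table. Calb1 had 0.88 ± 0.12 and was the only 1 of the 10 genes to pass, where 10% of all genes passed. En1 had 0.17 ± 0.55, Pitx3 -0.02 ± 0.60, Foxa2 0.09 ± 0.25 and Aldh1a1 -0.11 ± 0.24, and Satb1 and Anxa1 had 0.28 ± 0.09 and 0.74 ± 0.28. Groups did not overlap for 5 of the 10, as for 48.4% of all genes. This table lacks PBS mouse 8, whose dopamine neuron genes were the highest of its group. With all 3 PBS mice, En1 had -0.38 ± 0.62, Pitx3 -0.59 ± 0.65, Anxa1 0.17 ± 0.48, Satb1 0.03 ± 0.19 and Calb1 0.84 ± 0.11. Without PBS mouse 7 none of the 10 passed, in a fit with mouse 9 as the single PBS library, assumed to vary like the morphine ones. Of the 32 other genes 4 passed, all higher. Nr4a2, the nuclear receptor of these neurons, which neural activity also induces, was higher by 0.67 ± 0.14. Kcnj6, Adcyap1 and Lmo3 were higher by 0.54, 0.60 and 0.50. These 4 values also come from the table without PBS mouse 8. Over all 3 PBS mice Nr4a2 ran from 41.2 to 66.8 CPM, which overlaps the 54.4 to 77.6 of the morphine mice.

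The difference between these morphine differences was fitted as an interaction over the 12 VTA libraries. It was 3.78 ± 0.98 for En1, 3.13 ± 1.06 for Pitx3, 2.43 ± 0.57 for Anxa1, 2.00 ± 0.58 for Foxa2 and 1.70 ± 0.44 for Aldh1a1, and -0.36 ± 0.22 for Calb1. None of the 10 passed, the smallest adjusted p in limma being 0.283, although 8 had an unadjusted p under 0.05. Over all genes limma called 0 (0%), with 1739 at an unadjusted p under 0.05, edgeR 0 and DESeq2 51, of which 0 were members. Anxa1 and Satb1 passed without Vdr-/- PBS mouse 8, a fit whose share of all genes is not given here.

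Of 15 marker lists of other cell types, those of oligodendrocytes and microglia separated the injections in the VTA. The sum of 6 oligodendrocyte genes, led by myelin genes, was 11970 to 13022 CPM in wild-type PBS mice and 11859 to 12284 in Vdr-/- PBS mice, and 6108 to 10029 and 7998 to 8850 in wild-type and Vdr-/- morphine mice. The sum of 6 microglial genes was 203 to 290 CPM in the PBS and 143 to 180 in the morphine libraries. Other lists stood out in single libraries. The sum of 2 red nucleus and oculomotor genes was 17.4 CPM in wild-type morphine mouse 1.0 and 10.9 in mouse 1.2. These libraries had the lowest dopamine neuron sums, and the other VTA libraries had 2.09 to 6.23. The NAc libraries, which are not from that tissue, had 9.21 to 18.2, so these 2 genes are not particular to it. For 6 hypothalamic, mammillary and subthalamic genes the sum was 131 CPM in wild-type morphine mouse 1.0 and 40.5 to 114 in the other VTA libraries. The sum of 4 serotonin neuron genes was 15.6 CPM in wild-type PBS mouse 2 and 0.723 to 1.70 in the other VTA libraries. The sum of 4 thalamic genes was highest in wild-type morphine mouse 1.1 (473) and 1.2 (229) and in Vdr-/- PBS mouse 9 (345), beside 64.5 to 174 in the other VTA libraries. Choroid plexus genes, a tissue that expresses Otx2, summed to 7.43 to 32.1 CPM except in Vdr-/- morphine mouse 2.1 (133), where Otx2 was at 6.13. None of the markers of the oligodendrocyte, microglial and thalamic lists was at 0 in a VTA library; Ttr, Aqp1 and Kcne2 of the 8 choroid genes were in some. The part of these cell types in the differences was not tested.

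Most of the 10 genes moved together from library to library. Over the 12 VTA libraries the 45 pairs had a median Pearson r of 0.743 in log2(CPM + 1), 36 positive, and 39 pairs passed an adjusted p of 0.05 in a two-sided permutation test over libraries (32 positive and 7 negative). By Spearman's rho 33 passed. These pooled values contain the group differences for which the genes were chosen. Among Pitx3, En1, Foxa2, Aldh1a1, Anxa1, Satb1 and Ntsr1, singled out after their values were seen, r ran from 0.786 to 0.989 over 21 pairs. Within the 6 PBS libraries these 21 had a median of 0.953 and within the 6 morphine libraries of 0.883. As deviations from group means the range was 0.412 to 0.984, and 20 of the 45 pairs passed by r but only 8 by rho. That test shuffled the deviations across groups, although deviations within a group are not independent and the groups differ in spread. Its counts are therefore a description. Within the PBS libraries 21 pairs passed by r and 4 by rho, and within the morphine libraries 11 and 3.

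En1 and Aldh1a1 were the tightest pair, at r = 0.989 and rho = 0.972, both with a permutation p of 1e-05, the smallest that the permutations can give, and adjusted p of 9e-05 and 0.000112. Their r was 0.982 without the 2 libraries farthest from the median En1 level, 0.988 in PBS, 0.994 in morphine libraries and 0.984 as deviations. Anxa1 and Satb1 had r = 0.967 and rho = 0.958 with the same permutation p of 1e-05 and adjusted p of 9e-05 and 0.000112, and 0.893 as deviations, higher than Anxa1 with its neighbour Aldh1a1 (0.677 as deviations). The difference between those values was not tested. Groups were ignored by the permutations, and the pooled values contain the group differences for which the genes were chosen. The p values of these 2 pairs are therefore a description and no support.

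Calb1 did not share this pattern. Its 9 pooled r were all negative, from -0.819 with Aldh1a1 to -0.294 with Sox6. Within the morphine libraries they were -0.941 to -0.594, but within the PBS libraries -0.245 to 0.390 with 2 of 9 negative, so the pooled relation did not hold within PBS. Otx2 paired weakly, with r of 0.478 with Ntsr1 and 0.632 with Foxa2, the latter 0.262 without the 2 farthest libraries.

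**Figure D3:**
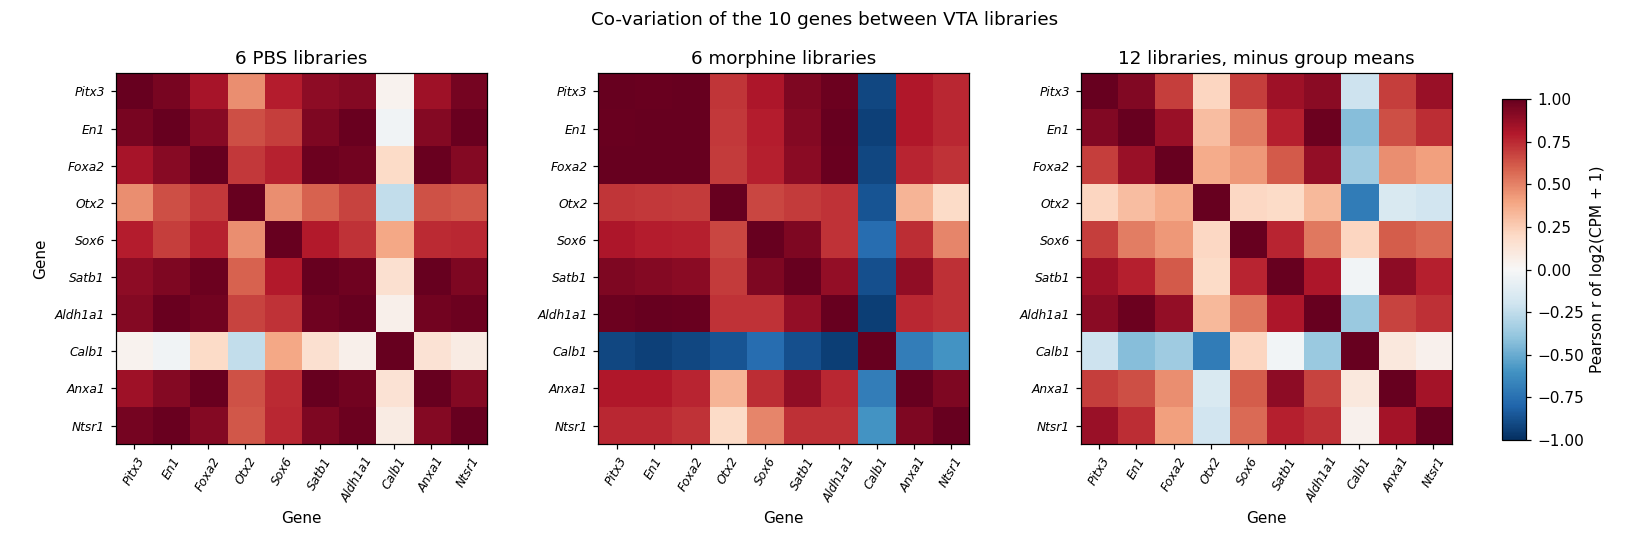
Pearson r of log2(CPM + 1) for each pair of the 10 genes within the 6 PBS libraries, within the 6 morphine libraries, and over the 12 VTA libraries after subtracting group means. Calb1 is near 0 in PBS (-0.245 to 0.390) and negative in morphine libraries (-0.941 to -0.594), and the other genes are mostly positive in all panels.

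Against Slc6a3, itself no member, En1 had r = 0.988 (rho = 1), Foxa2 0.977 and Aldh1a1 0.970 over the 12 libraries. Their permutation p was 1e-05, 2e-05 and 1e-05, and adjusted p 3.33e-05, 5e-05 and 3.33e-05. The permutations ignored the groups, and these pooled values contain the group differences for which the genes were chosen. The p values are therefore a description and no support. As deviations from group means r was 0.962 for En1, 0.921 for Foxa2 and 0.934 for Aldh1a1, with no test. Per log2 unit of Slc6a3, on the same log2(CPM + 1) scale, En1 changed by 0.726, Pitx3 by 0.437, Aldh1a1 by 0.430, Foxa2 by 0.321, Anxa1 by 0.302, Ntsr1 by 0.217, Satb1 by 0.159, Otx2 by 0.0843, Sox6 by 0.0481 and Calb1 by -0.240. These slopes are a description with no test. The slope of Pitx3, which has few reads, was 0.783 with a pseudocount of 0.1. That of Ntsr1 was 0.439 in the PBS and 0.0957 in the morphine libraries, and that of Calb1 was -0.0101 and -0.144.

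**Figure D4:**
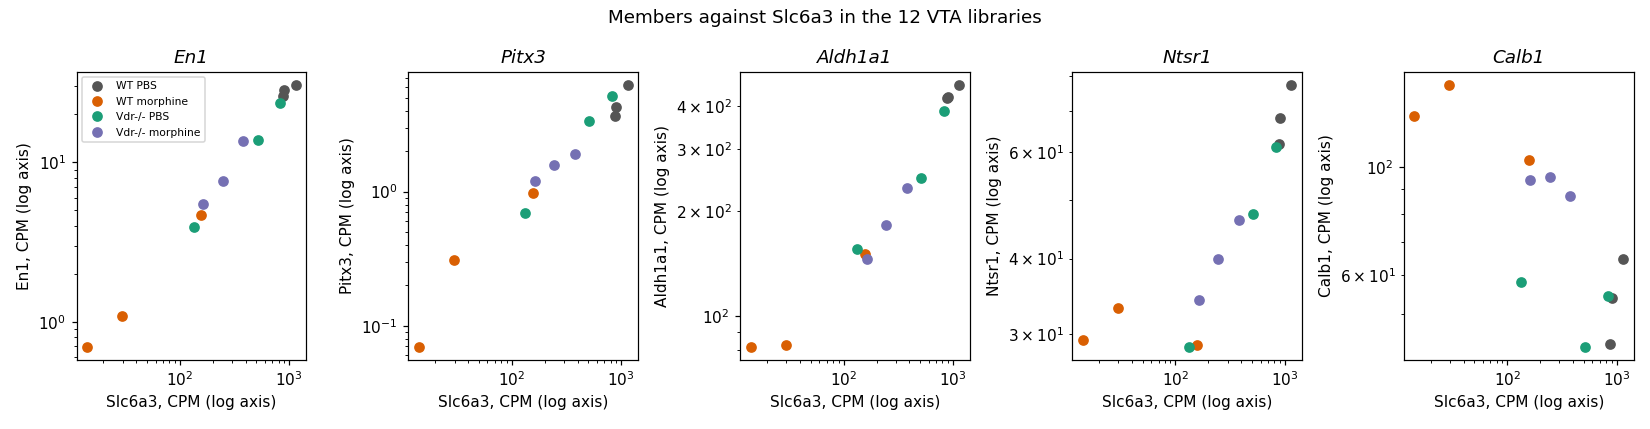
Level of En1, Pitx3, Aldh1a1, Ntsr1 and Calb1 (CPM, log axis) against Slc6a3 (CPM, log axis) in the 12 VTA libraries, coloured by group. In log2(CPM + 1) the slope is 0.726 for En1, 0.437 for Pitx3 (0.783 with a pseudocount of 0.1), 0.430 for Aldh1a1, 0.217 for Ntsr1 (0.439 in PBS and 0.0957 in morphine libraries) and -0.240 for Calb1.

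The genes most like each member over the 12 VTA libraries, of 16240 with a mean of at least 10, are named by their r. Pitx3 was nearest to Th (r = 0.989), Ddc (0.987) and Slc10a4 (0.982), and En1 to Chrna6 (0.996), Ret (0.994) and Slc10a4 (0.994). Foxa2 was nearest to Slc6a3 (0.977), Chrna6 (0.974) and Chrnb3 (0.968), and Aldh1a1 to Cnpy1 (0.995), Ret (0.994) and Chrna5 (0.992). Anxa1 was nearest to Trpc6 (0.989), Syt17 (0.973) and Satb1 (0.967), and Ntsr1 to Sncg (0.988), Pou3f2 (0.984) and Fam167a (0.984). Satb1 had Gpr26 (0.985) and Pappa (0.972) among its nearest. Otx2 and Sox6 had no near neighbour above 0.89, Otx2 being closest to the activity-induced gene Arc (0.847), She (0.840) and Pno1 (0.839), and Sox6 to Gngt2 (0.889), Neb (0.857) and Fam184a (0.852). Calb1 was closest to Gtf3c4 (0.969), Xpo7 (0.968) and Ap3d1 (0.966), and Slc6a3 ranked 15395 of 16239 for it. These r are a ranking with no test.

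Between regions, 9 of the 10 differed in a fit with the mouse as a block. Of these 8 were higher in the VTA, where 37% of all genes were higher, and Calb1 lower, where 34.5% were lower (71.5% in all). The genes are known as midbrain genes and were chosen with earlier results of these data known. The adjusted p values for region are therefore a description and no support. Foxa2 had no read in the 12 NAc libraries and 811 in the VTA, at least 234-fold higher against a floor of 3 reads over the NAc group (adjusted p in limma 1.63e-10). En1 had 10 NAc and 3023 VTA reads, 262-fold per read sequenced, and Pitx3 5 and 556, 96.4-fold. Aldh1a1 was higher by 3.83 ± 0.25 on the log2 scale (adjusted p in limma 2.76e-09), Anxa1 by 3.78 ± 0.43 (1.43e-06), Ntsr1 by 2.28 ± 0.16 (5.71e-09) and Otx2 by 1.56 ± 0.26 (8.03e-05). These 7 genes were higher in 12 of 12 mice, but by little in some wild-type morphine mice. Pitx3 had 1 VTA read against 0 in the NAc of mouse 1.2 and 6 against 1 in mouse 1.0. Otx2 was at 5.73 against 5.05 CPM in mouse 1.1. Satb1 differed by 0.38 ± 0.13 (adjusted p in limma 0.0161, 10 of 12 mice) and Calb1 by -0.80 ± 0.19 (0.00144, lower in all but 1 mouse). In morphine mice alone neither Satb1 nor Calb1 passed, and Pitx3 was under the mean of 10 and not tested. Sox6 did not pass (-0.12 ± 0.12, adjusted p in limma 0.407, higher in 6 of 12 mice), but passed as lower in the VTA in morphine mice alone (-0.48) and without wild-type PBS mouse 2 (-0.23), whose NAc library had 15.5 CPM beside 30.2 to 50.2 in the others. Of the 32 other dopamine neuron genes 23 were higher and 8 lower in the VTA.

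**Figure D5:**
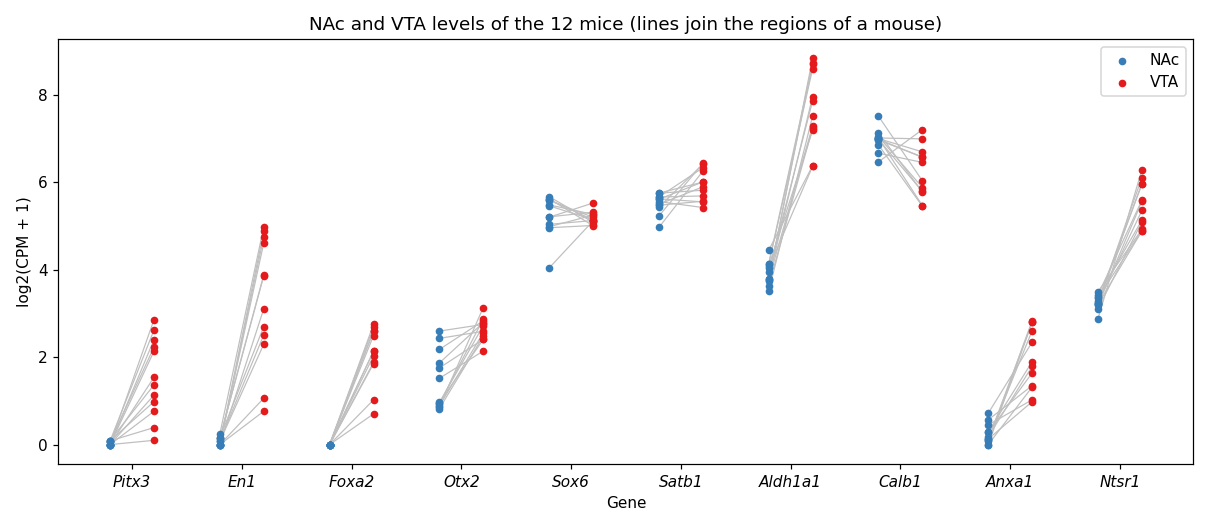
Level of the 10 genes, log2(CPM + 1), in the NAc and VTA of the 12 mice, with a line for each mouse. Foxa2 is at 0 in all NAc libraries, Calb1 falls toward the VTA in all but 1 mouse, and Sox6 is higher in the VTA in 6 of 12.

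Within the NAc, where Foxa2 is not listed and Pitx3, En1 and Anxa1 stayed under the mean of 10, 6 of the 10 genes were tested. No member passed by genotype, with PBS (0.069% of all genes passed) or with morphine (0.192%), and 0 had an unadjusted p under 0.05 or were called by DESeq2 or edgeR. Genotype groups overlapped for all 6 with PBS (16.9% of all genes did not) and for all but Sox6 with morphine (13.5%). Otx2 was the gene that differed most by injection. It was at 0.909, 0.946 and 0.816 CPM in wild-type PBS mice and 1.86, 5.05 and 2.37 in wild-type morphine mice, and at 0.847, 0.769 and 0.952 and then 2.65, 3.52 and 4.40 in the Vdr-/- groups. Every morphine library exceeded every PBS library.

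In Vdr-/- mice Otx2 (1.90 ± 0.24) and Sox6 (0.41 ± 0.07) passed, 2 of 6, where 19.1% of all genes passed and groups of 37.9% did not overlap. In wild-type mice Otx2 had 1.57 ± 0.36 and Sox6 0.89 ± 0.29, the latter 0.51 and past the threshold without PBS mouse 2. That library had 15.5 CPM of Sox6 beside 35.9 and 30.7 in its group, and sums of 2837 beside 4632 and 4756 CPM for 6 astrocyte genes and of 753 beside 357 and 429 for 6 hippocampal genes. With it 0 of 6 passed in limma (0.813% of all genes did), with 2 at an unadjusted p under 0.05, DESeq2 calling Otx2 and edgeR none; groups of 3 of the 6, these 2 and Calb1 (-0.42 ± 0.19), did not overlap, as for 25.5% of all genes. In CPM the Calb1 groups overlapped. Beside this, the sum of 7 meningeal genes was 42.1 to 49.5 CPM in the PBS and 55.2 to 110 in the morphine NAc libraries, that of 8 choroid plexus genes 20.9 to 31.2 and 30.0 to 37.8, and that of 6 medium spiny neuron genes 2462 to 3354 and 1585 to 2249. That of 6 microglial genes was 240 to 283 and 197 to 219.7, and that of 6 hypothalamic and subthalamic genes 2.04 to 5.16 and 5.94 to 8.28. No meningeal, microglial or medium spiny marker was at 0 in a library, but 5 of the choroid genes, Ttr among them, and 5 of the hypothalamic ones were in some. The part of these in the Otx2 difference was not tested. Calb1, higher with morphine in the VTA of both genotypes, was thus not higher in the NAc, with -0.42 ± 0.19 in wild-type and -0.13 ± 0.08 in Vdr-/- mice; a difference between regions in this was not tested.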

How the data were processed

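Paired-end reads of 24 libraries (12 NAc and 12 VTA) were, per the labels and the study's methods, demultiplexed with CASAVA 1.8, trimmed with Trimmomatic 0.36, aligned to GRCm38 with STAR 2.4.2a and scaled with DESeq2. The deposited signal values are read counts that the authors divided by a size factor within each of 8 tables. Whole reads were recovered for 100% of values (tolerance 0.01), and CPM and RPKM were computed from them. Differences were fitted within a table with limma 3.58.1 (R 4.3.3; trend, log2(value + 1), mean of at least 10, Benjamini-Hochberg adjusted p of 0.05). The interaction used the 12 VTA libraries and the region fit all 24 with the mouse as a block, since both punches came from the same animal. DESeq2 1.42.0 and edgeR 4.0.16 on recovered reads were alternatives, with other pseudocounts, filters and left-out libraries. The main limma fit and edgeR were run on simulated data for some of the comparisons, but DESeq2 and the other settings were not. Correlations used 100000 permutations (all orders for 6 libraries), adjusted over 45 pairs, or over the 10 members against Slc6a3. The members and lists were chosen with earlier results of these data known. Named genes were the members, the fixed list of 32 and the 3 nearest genes to each member. A gene that this rule names is not reported here. Marker sums cover 15 lists, of which 2 genes were not matched. Positions came from GENCODE M21 (99.8% of identifiers matched) and promoters from RefSeq. Depth limits Pitx3, with 1 to 154 reads per VTA library.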

Additional observations from a re-analysis of the deposited data

Results flagged for a closer look

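For 4 genes the VTA groups did not overlap in normalized counts, in opposite directions in 2 comparisons. En1 differed by -1.4 between labelled Vdr-/- and wild type with PBS and by 2.37 with morphine, on the log2 scale, and Ntsr1 by -0.678 and 0.386. Satb1 differed by -0.835 between morphine and PBS in wild-type mice and by 0.278 in Vdr-/- mice, and Anxa1 by -2.25 and 0.741. The interaction, which tests these differences, did not pass for any of them in limma (smallest adjusted p 0.283). The Vdr-/- values of Satb1 and Anxa1 come from the table without PBS mouse 8, and with it they were 0.03 and 0.17.

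Calb1 differed between morphine and PBS in wild-type mice by 1.04 in the VTA and by -0.422 in the NAc, without overlap in the normalized counts of either region. In CPM the NAc groups overlapped, PBS mouse 3 being at 128.4 and morphine mouse 1.2 at 128.6. That the regions differ in this was not tested.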

How the results depend on the processing

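No called value changed sign. With all 3 PBS mice, uncalled values for morphine in the Vdr-/- VTA did, En1 from 0.17 to -0.38, Foxa2 from 0.09 to -0.12 and Ntsr1 from 0.11 to -0.13, and the members' median went from 0.15 to -0.04. Of the values for single genes, 1227 kept their direction and side of the threshold, 29 newly passed, 26 no longer passed and 35 moved. DESeq2 called 2 members for genotype with morphine in the VTA and 1 for morphine in the wild-type NAc, where edgeR on 12 libraries called 2. For morphine in the Vdr-/- NAc, a mean of at least 50 and edgeR on 12 libraries each gave 1. What share of all genes these tools and settings called is not given here, so these member counts have no background. Without a trend, limma called 2 members for morphine in the wild-type VTA and 0 in the Vdr-/- VTA, with 56 and 0 of all genes. The interaction on the 10 libraries of the deposited tables called 2 members, Anxa1 and Satb1, and 9 of all genes. For co-variation, 20 pairs passed by r as deviations from group means, 21 in PBS and 11 in morphine libraries. By rho these counts were only 8, 4 and 3. Leaving out 1 library gave 0 to 4 members for genotype with PBS and 0 to 3 with morphine in the VTA, 0 to 8 and 0 to 1 for morphine in wild-type and Vdr-/- VTA, 0 to 1 for morphine in the wild-type NAc, 0 to 2 for the interaction, 9 to 10 for region and 29 to 39 pairs. Morphine mice share a digit after the point, and deviations of same-numbered VTA libraries correlated at -0.26 to -0.129. With 3 libraries per group these values cannot exclude that same-numbered mice were handled together. The fit with that replicate block called 0 members in the VTA and 0 in the NAc for genotype with morphine, and 4 and 19 of all genes (10 and 30 without it). The shares of all genes that passed with 1 library left out are not given here. Genes of few reads, Pitx3 above all, are limited by depth. The causes were not tested.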
